A study of Mus musculus with 19 samples.

Results

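Transcripts of 31 genes of glycolysis and of the response to low oxygen were followed in T cells sorted from liver metastases in mice. The genes were chosen by name and not by a cut on measured values, but with earlier results of these data known. Of 25639 genes in each of the deposited tables, 29 were found by symbol and 2 by gene identifier (Aldoa, and Ero1l, which the tables list as Ero1a). They comprised 2 glucose transporters, 10 genes of upper glycolysis, 5 of lower glycolysis, 3 of lactate production and transport, 1 pyruvate dehydrogenase kinase, 3 of the HIF-1α oxygen-sensing system and 7 further hypoxia response genes.

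All mice carried floxed Tet2, a gene whose product oxidises methylated cytosine in DNA, and all had received Venus-AKTPM/LOH colorectal cancer cells by injection into the spleen 30 days earlier. Tet2fl/fl mice had no Cre and served as controls, Vav1CreTet2KO mice carried a Cre that is active throughout the blood cell lineages, and Cd4CreTet2KO mice carried a Cre that is active in T cells, which includes CD8 T cells because their precursors express Cd4. CD8 T cells gave 3 Tet2fl/fl, 3 Vav1CreTet2KO and 4 Cd4CreTet2KO libraries, and CD4 T cells gave 3 of each. Each replicate of a genotype was a separate animal, and 8 of the 11 animals gave both cell types. The age and sex of the mice were not given in the labels used here.

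Glycolysis splits glucose into pyruvate and yields ATP without oxygen. Activated T cells use it heavily even where oxygen is plentiful, and turn much of the pyruvate into lactate. HIF-1α is a transcription factor that the prolyl hydroxylases encoded by Egln1 and Egln3 mark for destruction when oxygen is available. When oxygen falls it accumulates and induces glucose transporters, most glycolytic enzymes and genes such as Vegfa, Bnip3 and Ddit4. It does so through sites with the core ACGTG or GCGTG. In T cells, stimulation through the antigen receptor also raises HIF-1α.

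In CD8 libraries 8189300 to 20327809 reads on genes were recovered from RPKM, without 1571 genes whose length the CD4 table did not imply. CD4 libraries held 707866 to 17575534 counted reads. The shallowest, CD4 Vav1CreTet2KO replicate 1, had reads on 7761 genes. CD8 Vav1CreTet2KO replicate 1 stood apart in that 50.6% of its counts from 1 to 20 were odd, against 13.1% to 30.7% in the other 18 libraries. Counting both reads of a pair gives even counts, and the tables do not say whether this library was counted otherwise, so its recovered reads may be on another scale than those of the other libraries. Its RPKM values summed to 251038, against 124408 to 172637 in the other CD8 libraries. RPKM gives the reads on a gene per kilobase of its length, scaled to the reads of the library. Transcripts of 10 macrophage markers summed to 268 and 140 RPKM in CD8 Cd4CreTet2KO replicates 1 and 2 and to at most 47.5 RPKM in the other CD8 libraries. Those of 4 neutrophil markers summed to 88.1 and 53.9 RPKM in the same libraries and to at most 3.38 RPKM in the other CD8 libraries. The sorted populations carried their defining markers, with Cd8a and Cd8b1 summing to at most 8.01 RPKM in CD4 libraries. In CD8 libraries they summed to 335 to 428 RPKM in Tet2fl/fl, 263 to 370 in Vav1CreTet2KO and 231 to 301 in Cd4CreTet2KO. There 5 T cell markers summed to 624 to 901, 548 to 1149 and 415 to 677 RPKM. Their median log2 fold change against Tet2fl/fl was -0.31 in Vav1CreTet2KO (3 negative, 2 positive) and -0.51 in Cd4CreTet2KO (5 negative). The part of these shifts in the members' differences was not tested. Cd4 and Zbtb7b summed to 46.5 to 134 RPKM in CD4 libraries and to at most 11.2 RPKM in CD8 libraries. Mean Tet2 was 7.42 RPKM in CD8 Tet2fl/fl (SD 0.773, n = 3), 4.93 RPKM in Vav1CreTet2KO (SD 1.76, n = 3) and 5.002 RPKM in Cd4CreTet2KO (SD 1.90, n = 4), and 5.04, 4.24 and 5.54 RPKM in the CD4 groups (SD 1.73, 1.44 and 1.51, n = 3 each). Reads were summed over all exons, so this check cannot show whether the floxed exon was lost.

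The promoters of the members were examined for both forms of the HIF core in the RefSeq promoter set for GRCm38.p6, which gives 250 bases before and 50 bases after each gene start. The first motif searched was ACGTG, or its reverse complement CACGT, so that the palindrome CACGTG counts on both strands. Of 31 members 30 were matched, and Slc2a3 was not. At least 1 listed promoter held the motif in 24 of the 30 (80%), against 30.2% of 7929 matched genes among those tested in CD8 cells and 21.8% of 27025 genes in the whole set. The other form of the core, GCGTG or its reverse complement CACGC, was held by 20 of the 30 (66.7%), against 57.1% of the tested and 35.2% of all genes. A match describes these letters and is neither a binding site nor a cause. The sequences of 3 promoters are shown, 250 bases up to the gene start, with the ACGTG motif in capitals. Ddit4 (chr10:59951771-59952020, minus strand) is the member whose transcripts passed the main tests in CD8 cells, and it held 1 match. Pgk1 (chrX:106186850-106187099, plus strand) and 1 of the 2 listed promoters of Ldha (chr7:46845554-46845803, plus strand) are shown for comparison as members with several matches, 2 and 5.
Ddit4: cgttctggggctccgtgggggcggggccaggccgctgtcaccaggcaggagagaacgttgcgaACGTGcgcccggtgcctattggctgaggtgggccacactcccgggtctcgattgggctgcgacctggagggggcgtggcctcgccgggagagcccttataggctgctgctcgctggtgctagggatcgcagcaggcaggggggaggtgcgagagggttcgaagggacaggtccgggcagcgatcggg
Pgk1: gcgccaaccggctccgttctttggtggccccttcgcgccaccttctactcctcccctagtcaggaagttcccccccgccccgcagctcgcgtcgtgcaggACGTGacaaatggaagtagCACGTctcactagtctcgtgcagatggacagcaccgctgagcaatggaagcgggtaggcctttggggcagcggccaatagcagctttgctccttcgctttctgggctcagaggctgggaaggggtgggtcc
Ldha: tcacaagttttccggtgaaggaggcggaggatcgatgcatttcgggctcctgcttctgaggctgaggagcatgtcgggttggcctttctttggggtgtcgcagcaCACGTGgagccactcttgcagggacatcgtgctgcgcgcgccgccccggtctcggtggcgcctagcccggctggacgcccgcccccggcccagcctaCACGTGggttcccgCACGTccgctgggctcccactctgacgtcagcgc
All 3 sequences are written 5′ to 3′ on the strand of the gene. In Ldha, 4 of the 5 matches come from 2 copies of the palindrome CACGTG, each read on both strands. Of the 19 members ranked in the first 6 by p in a comparison, Gpi1, Pfkl and Pfkp had no ACGTG in their listed promoter. The other form, GCGTG, was held by Pfkl and Pfkp and not by Gpi1.

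Levels of the members spanned a wide range, from a mean of 297 RPKM for Gapdh to 0.898 RPKM for Vegfa in CD8 Tet2fl/fl cells. After Gapdh, which makes the high-energy phosphate compound consumed by phosphoglycerate kinase, the highest were the enolase gene Eno1 (103 ± 41.8 RPKM, SD, n = 3), the pyruvate kinase gene Pkm (87.9 ± 20.3) and the aldolase gene Aldoa (85.9 ± 21.7). In that group 25 of 30 neighbours in the order of levels overlapped in their library values, so that only Gapdh, Mif, Hif1a, Ddit4 and Slc2a3 stood clear of the next lower member. In the other groups 26 to 30 of the 30 neighbouring pairs overlapped.

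**Figure D1:**
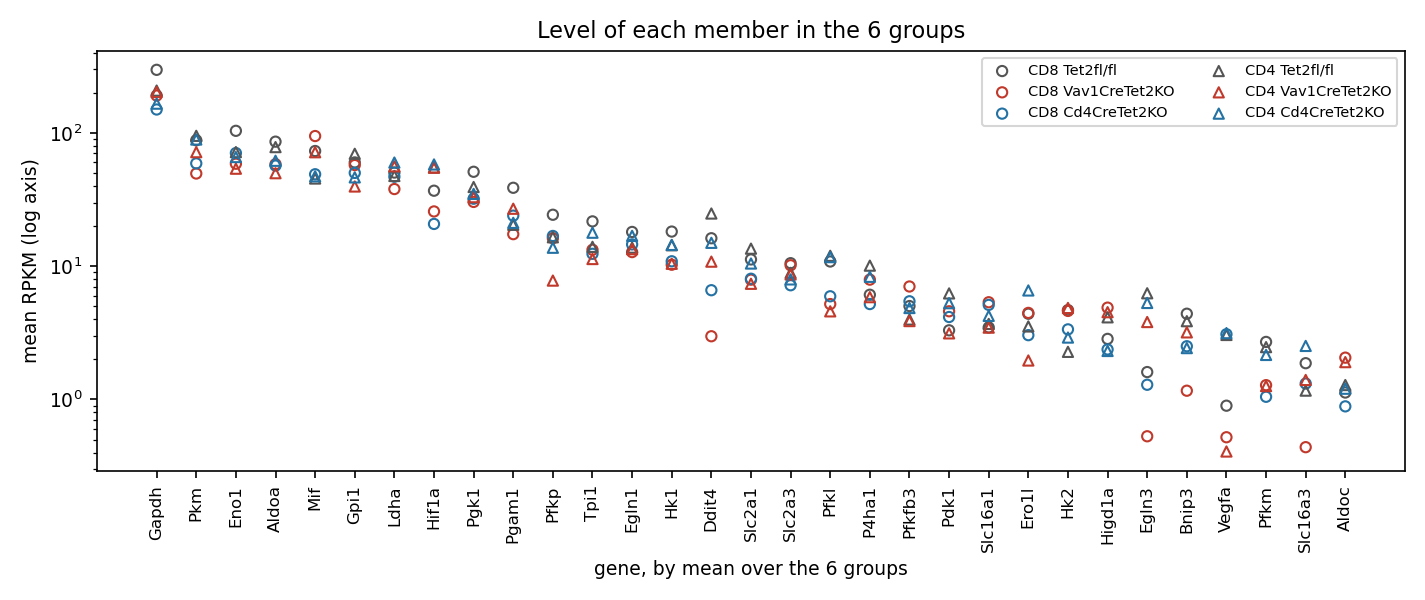
Mean RPKM (log axis) of each of the 31 members in the 6 groups, with genes ordered by their mean over the groups. Circles are CD8 and triangles CD4 cells, and colours mark the genotype. Gapdh is at the top in every group. Between genotypes, mean Ddit4 runs from 2.98 RPKM (Vav1CreTet2KO) to 16.2 RPKM (Tet2fl/fl) in CD8 cells. In CD4 cells it runs from 10.8 RPKM (Vav1CreTet2KO) to 24.8 RPKM (Tet2fl/fl).

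Several steps of glycolysis can be catalysed by alternative gene products, and RPKM allows these to be compared per length. Hk1, the broadly expressed hexokinase that traps glucose in the cell, lay above the inducible Hk2 in 10 of 10 CD8 and 8 of 9 CD4 libraries, with a median ratio of 3.67 and 5.22. The exception was CD4 Vav1CreTet2KO replicate 1. Phosphofructokinase, which commits sugar to glycolysis, is built from the platelet, liver and muscle subunits. In every library Pfkp exceeded Pfkl and Pfkl exceeded Pfkm. Pfkp made up 64.4% ± 6.80 (SD, n = 3) of the 3 subunits' summed RPKM in CD8 Tet2fl/fl and 53.2% ± 2.08 (n = 3) in CD4 Tet2fl/fl, and Pfkl made up 28.3% ± 3.47 and 38.5% ± 5.54. Aldoa exceeded the brain-type aldolase gene Aldoc at least 16.1-fold in every library. Of the proton-coupled monocarboxylate carriers, Slc16a1 lay above Slc16a3, the carrier typical of strongly glycolytic cells, in 10 of 10 CD8 and 8 of 9 CD4 libraries. Egln1 lay above Egln3 in all 19. The glucose transporters had no fixed order, with Slc2a1 above Slc2a3 in 6 of 10 CD8 and 7 of 9 CD4 libraries.

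Ddit4 was the only member that passed an adjusted p under 0.05 in the main fits, limma for CD8 and edgeR for CD4 cells. It encodes REDD1, a protein that restrains the growth kinase mTORC1 and is induced by low oxygen, energy shortage, glucocorticoids and other stresses. In CD8 cells Ddit4 stood at 16.2, 18.9 and 13.4 RPKM in Tet2fl/fl, at 2.90, 3.36 and 2.69 RPKM in Vav1CreTet2KO and at 7.85, 6.83, 5.09 and 6.63 RPKM in Cd4CreTet2KO replicates 1 to 4. All 3 genotypes were separate, with the controls highest and Vav1CreTet2KO lowest. Against Tet2fl/fl, Ddit4 fell 4.29-fold in Vav1CreTet2KO (log2 fold change -2.10, SE 0.25, limma adjusted p = 0.00799) and 2.26-fold in Cd4CreTet2KO (-1.18, SE 0.23, limma adjusted p = 0.0466). These folds are on the scale of log2(RPKM + 1), which understates the change of low genes, and both comparisons share the same 3 control libraries. The difference between the knockouts was -0.92 (SE 0.23) and did not pass (limma adjusted p = 0.723).

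The Vav1CreTet2KO call was lost without Tet2fl/fl replicate 1 (log2 fold change -2.09, limma adjusted p = 0.0750) and stood without any other single library. The Cd4CreTet2KO call was lost in every fit that left out a single library, with limma adjusted p from 0.0653 to 0.354 and log2 fold changes from -1.30 to -1.06. It was also lost without both libraries that held macrophage and neutrophil transcripts (-1.32, limma adjusted p = 0.256) and with edgeR on reads recovered from RPKM (-1.09, edgeR adjusted p = 0.144). With DESeq2 on those reads, which called more of all genes, it stood (DESeq2 adjusted p = 0.0136). In the authors' deposited table Ddit4 had a log2 fold change of -2.38 (false discovery rate 8.02e-05) in CD8 Vav1CreTet2KO and -1.08 (0.284) in CD8 Cd4CreTet2KO. In these bulk samples, fewer cells that express a gene and less RNA per cell cannot be told apart.

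In CD4 cells Ddit4 stood at 19.5, 22.8 and 32.2 RPKM in Tet2fl/fl, at 5.86, 13.8 and 12.7 RPKM in Vav1CreTet2KO and at 13.9, 18.1 and 12.9 RPKM in Cd4CreTet2KO. The controls again lay above every knockout library, while the knockouts overlapped. Neither difference passed, with log2 differences of -1.08 (SE 0.45, edgeR adjusted p = 0.372) in Vav1CreTet2KO and -0.64 (SE 0.44, edgeR adjusted p = 0.9998) in Cd4CreTet2KO. Whether the response differs between CD8 and CD4 cells was not tested, and each of the 2 tables was a fit of its own. Side by side, all 8 animals that gave both cell types had more Ddit4 in CD4 than in CD8 cells.

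**Figure D2:**
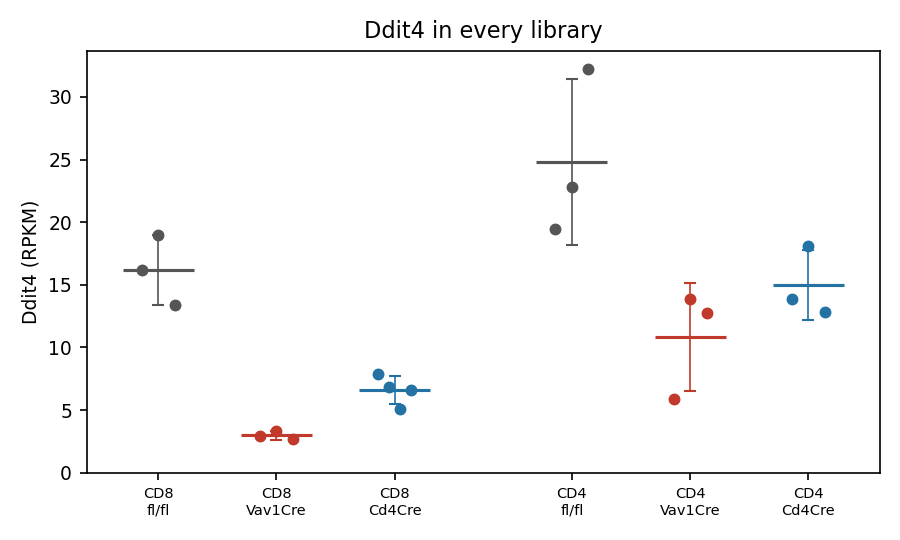
RPKM of Ddit4 (vertical axis) in each of the 19 libraries, by cell type and genotype. Points are libraries, wide bars the group mean and error bars the SD. The 3 CD8 Tet2fl/fl libraries lie between 13.4 and 18.9 RPKM and every CD8 knockout library at or below 7.85 RPKM.

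Other transcripts moved with the same groups. The summed level of 10 heat shock genes, all detected in each group, was 3437 to 4850 RPKM in CD8 Tet2fl/fl, 2048 to 2134 in Vav1CreTet2KO and 1578 to 2059 in Cd4CreTet2KO. In the CD4 libraries the sum was 3419 to 5356, 1375 to 2076 and 1554 to 1948 RPKM. The heat shock sum thus separated controls from knockouts as Ddit4 did, but did not place Vav1CreTet2KO below Cd4CreTet2KO in CD8 cells. The 9 dendritic cell markers, none of them at 0 in all libraries of a group, summed to 56.8 to 377 RPKM in CD8 Tet2fl/fl, 941 to 2554 in Vav1CreTet2KO and 319 to 2708 in Cd4CreTet2KO. In CD4 cells they summed to 86.1 to 221, 432 to 784 and 92.2 to 237 RPKM. The part of these transcripts in the fall of Ddit4 was not tested.

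In CD8 Vav1CreTet2KO cells, set against Tet2fl/fl, the question was how loss of Tet2 across blood cells goes with the glycolytic and hypoxia transcripts of tumour-infiltrating CD8 cells. Of the 31 members, all of which passed the filter on low values, 1 fell, 0 rose and 30 did not pass. Over all 10224 genes tested, 0.998% fell and 0.45% rose, 1.45% in all (limma, adjusted p under 0.05). At an unadjusted p under 0.05 it was 8 members, all lower, against 11.6% of all genes that were lower. The median log2 fold change of the members was -0.57, against -0.11 over all genes tested. It was negative in 24 members, against 58.4% of all genes. All 5 genes of lower glycolysis and 8 of 10 of upper glycolysis had a negative value, while Slc16a1, Pdk1, Pfkfb3, Aldoc, P4ha1, Mif and Higd1a were positive. The values of the 2 groups did not overlap in 9 members with lower and 1 with higher Vav1CreTet2KO levels, against 12.9% and 6.92% of all genes.

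The 5 members next to Ddit4 by p were 4 glycolytic enzymes and Bnip3, and none passed with limma. Pgam1, phosphoglycerate mutase, stood at 48.7, 23.8 and 43.7 RPKM in Tet2fl/fl and at 19.04, 20.9 and 12.2 RPKM in Vav1CreTet2KO. Its log2 fold change was -1.08 (SE 0.33, limma adjusted p = 0.125), and the Cd4CreTet2KO values of 33.4, 17.6, 23.3 and 21.3 RPKM overlapped both groups. The controls themselves spread 2-fold, with replicate 2 close to the knockouts. Hk1 stood at 17.6, 16.4 and 20.5 RPKM in Tet2fl/fl and at 6.58, 13.6 and 10.6 RPKM in Vav1CreTet2KO (-0.81, SE 0.27, limma adjusted p = 0.150). In Cd4CreTet2KO it stood at 10.2, 10.9, 9.47 and 12.9 RPKM, so that all 7 knockout libraries lay below all 3 controls.

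Pfkl stood at 13.9, 7.38 and 11.3 RPKM in the CD8 controls (Tet2fl/fl), at 3.08, 6.82 and 5.68 RPKM in Vav1CreTet2KO and at 7.20, 4.28, 4.96 and 7.33 RPKM in Cd4CreTet2KO. Its difference in Vav1CreTet2KO was -0.95 (SE 0.33, limma adjusted p = 0.172). As for Hk1, no knockout library reached the lowest control, although the gap between 7.33 and 7.38 RPKM was small. Pkm stood at 110, 70.3 and 83.4 RPKM in Tet2fl/fl, at 49.4, 64.1 and 35.0 RPKM in Vav1CreTet2KO and at 75.0, 48.4, 51.5 and 61.1 RPKM in Cd4CreTet2KO (Vav1CreTet2KO against Tet2fl/fl -0.83, SE 0.29, limma adjusted p = 0.174). Pkm encodes both forms of pyruvate kinase that splicing gives, which a gene-level value does not separate. Bnip3, which drives mitochondrial autophagy in hypoxia, stood at 7.64, 2.10 and 3.46 RPKM in Tet2fl/fl, at 2.26, 0.475 and 0.753 RPKM in Vav1CreTet2KO and at 5.17, 1.84, 0.778 and 2.24 RPKM in Cd4CreTet2KO. Its Vav1CreTet2KO difference of -1.27 (SE 0.50, limma adjusted p = 0.213) went with groups that overlapped.

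On recovered reads DESeq2 called Pgam1 (log2 fold change -1.07, DESeq2 adjusted p = 0.00944) and Pkm (-0.75, DESeq2 adjusted p = 0.00788) beside Ddit4, while edgeR called Ddit4 alone of the members. Over all genes, too, DESeq2 called many more than limma or edgeR in this comparison, with the counts given at the end. The members' median ranged from -0.81 without Vav1CreTet2KO replicate 2 to -0.35 without Tet2fl/fl replicate 1, the control library with the highest levels of Gapdh, Eno1, Aldoa and Pkm. Without Vav1CreTet2KO replicate 1, the library with odd counts, it was -0.45.

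**Figure D3:**
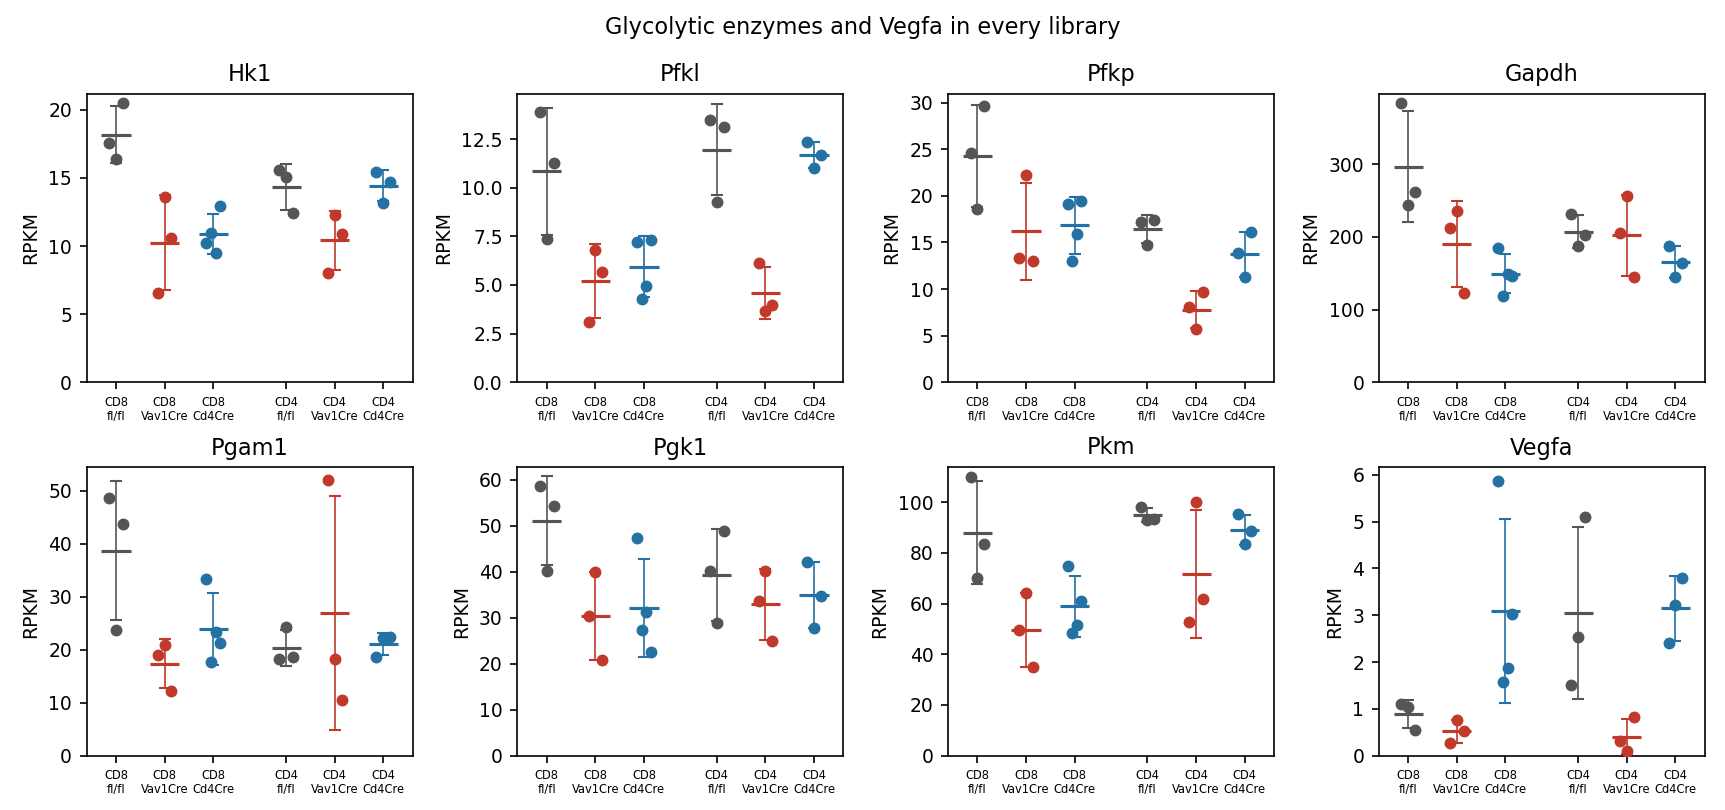
RPKM of 7 glycolytic enzyme genes and Vegfa in each library (points), with group mean (wide bars) and SD (error bars), by cell type and genotype. Each panel has its own vertical axis, which starts at 0. Hk1 and Pfkl are lower in all 7 CD8 knockout libraries than in the 3 CD8 controls, while in CD4 cells the Pfkl and Pfkp values of Vav1CreTet2KO lie below those of both other groups, differences that did not pass with edgeR.

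In CD8 Cd4CreTet2KO cells, where Cre acts in T cells, most members had a negative fold change against the same 3 controls. Of 31 members 1 fell (Ddit4), 0 rose and 30 did not pass, against 0.44% of the 10224 genes that fell and 0.0685% that rose (0.509% in all). At an unadjusted p under 0.05, 7 members were lower, against 8.68% of all genes. The median log2 fold change was -0.49, against -0.15 over all genes, and 27 members were negative, against 66.6% of all genes. When RPKM was rescaled by the trimmed mean of M-values (TMM), the median of all genes shifted to 0.02 and that of the members to -0.28. After that rescaling 25 members were negative, and the 66.6% of all genes refers to values before it. Groups did not overlap in 6 members with lower and 1 with higher Cd4CreTet2KO levels, against 14% and 3.85% of all genes.

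Gapdh stood at 384, 244 and 262 RPKM in the CD8 controls (Tet2fl/fl), at 184.9, 119, 148 and 146 RPKM in Cd4CreTet2KO and at 212, 236 and 123 RPKM in Vav1CreTet2KO. Every knockout library lay below every control, yet the log2 fold change of -0.97 (SE 0.29) in Cd4CreTet2KO did not pass (limma adjusted p = 0.160). It passed with only these 2 groups in the fit (limma adjusted p = 0.0471) and with DESeq2 on recovered reads (-0.79, DESeq2 adjusted p = 0.00421). Both settings also called many more of all genes than the fit over all libraries. Hk1 and Pfkl had differences of -0.69 (SE 0.25, limma adjusted p = 0.257) and -0.76 (SE 0.31, limma adjusted p = 0.330). Pgk1, phosphoglycerate kinase, which makes the first ATP of the pathway, stood at 58.6, 40.1 and 54.3 RPKM in Tet2fl/fl, at 47.2, 27.2, 31.1 and 22.6 RPKM in Cd4CreTet2KO and at 30.3, 39.8 and 20.9 RPKM in Vav1CreTet2KO. Replicate 1 of Cd4CreTet2KO overlapped the controls, and the difference was -0.69 (SE 0.30, limma adjusted p = 0.368).

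Vegfa, the vascular growth factor gene, lay in the opposite direction. It stood at 1.11, 1.03 and 0.559 RPKM in the CD8 controls (Tet2fl/fl), at 0.277, 0.766 and 0.520 RPKM in Vav1CreTet2KO and at 5.88, 1.57, 1.87 and 3.04 RPKM in Cd4CreTet2KO. All 4 Cd4CreTet2KO libraries were above all others, with log2 differences of 1.01 for Cd4CreTet2KO minus Tet2fl/fl (SE 0.35, limma adjusted p = 0.240) and of -1.33 for Vav1CreTet2KO minus Cd4CreTet2KO (SE 0.35, limma adjusted p = 0.723). Neither passed with limma, and both did with DESeq2 on recovered reads (1.92, DESeq2 adjusted p = 0.0340, and -2.63, DESeq2 adjusted p = 0.00593). In both comparisons DESeq2 called more of all genes than limma did. Macrophage markers summed to 268, 140, 5.51 and 8.66 RPKM and neutrophil markers to 88.1, 53.9, 0.663 and 0.235 RPKM in Cd4CreTet2KO replicates 1 to 4, and their part in the Vegfa values was not tested. Without replicates 1 and 2 the difference from Tet2fl/fl was 0.86 (limma adjusted p = 0.604).

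Set against each other, the 2 CD8 knockouts had no called gene, 0% of 10224 with limma, while 647 had an unadjusted p under 0.05, edgeR on recovered reads called 0 and DESeq2 called 60. Of the members 0 were called with limma and 2, Ddit4 and Vegfa, with DESeq2 (Ddit4 -1.25, DESeq2 adjusted p = 0.0237). The median of the members was 0.06 and that of all genes 0.04, and 16 members were positive and 15 negative, against 45.8% of all genes negative. At an unadjusted p under 0.05 it was 2 members, both lower, against 2.67% of all genes. Groups did not overlap in 2 members, Ddit4 and Vegfa, both lower in Vav1CreTet2KO, against 2.46% of all genes, while 0 members and 2.07% of all genes were higher without overlap. The next members by p had a library that stood out. Mif, a cytokine that is also induced by hypoxia, stood at 172, 71.3 and 40.0 RPKM in Vav1CreTet2KO, at 50.6, 26.9, 68.5 and 49.5 RPKM in Cd4CreTet2KO and at 81.9, 68.4 and 68.8 RPKM in Tet2fl/fl (Vav1CreTet2KO against Cd4CreTet2KO 0.76, SE 0.43, limma adjusted p = 0.723).

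Replicate 1 of CD8 Vav1CreTet2KO, the library with odd counts, was highest in Mif, Aldoc and Higd1a. Aldoc stood at 3.82, 0.777 and 1.58 RPKM in Vav1CreTet2KO, at 1.88, 0.711, 0.243 and 0.717 RPKM in Cd4CreTet2KO and at 1.07, 0.842 and 1.47 RPKM in Tet2fl/fl (Vav1CreTet2KO against Cd4CreTet2KO 0.64, SE 0.38, limma adjusted p = 0.723). Higd1a, a mitochondrial protein of the hypoxia response, stood at 10.03, 2.52 and 2.11 RPKM, at 2.54, 1.84, 2.50 and 2.61 RPKM and at 3.03, 2.20 and 3.31 RPKM in the same order of groups. Its difference of 0.56 (SE 0.39, limma adjusted p = 0.735) went to -0.02 without that library. The neuronal-type glucose transporter Slc2a3 stood at 11.7, 12.3 and 6.46 RPKM in Vav1CreTet2KO, at 7.11, 6.35, 6.95 and 8.34 RPKM in Cd4CreTet2KO and at 10.9, 9.41 and 11.3 RPKM in Tet2fl/fl. The knockouts overlapped (0.40, SE 0.25, limma adjusted p = 0.723), and all Cd4CreTet2KO libraries lay below all controls.

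Summed over 15 glycolytic enzymes, from hexokinase to pyruvate kinase together with Ldha, the members can be given as a share of all RPKM in a library, which rescales each library by its own total. It was 0.647%, 0.488% and 0.508% in CD8 Tet2fl/fl, 0.222%, 0.405% and 0.288% in Vav1CreTet2KO and 0.442%, 0.352%, 0.347% and 0.377% in Cd4CreTet2KO. All 7 CD8 knockout libraries lay below all 3 controls in this share. In summed RPKM without that rescaling the groups overlapped, at 1098, 673 and 802 RPKM in the controls, at 556, 698 and 402 RPKM in Vav1CreTet2KO and at 686, 438, 523 and 514 RPKM in Cd4CreTet2KO. In the CD4 libraries the share was 0.489%, 0.413% and 0.438% in Tet2fl/fl, 0.307%, 0.306% and 0.328% in Vav1CreTet2KO and 0.427%, 0.432% and 0.465% in Cd4CreTet2KO. Here the share of Vav1CreTet2KO lay below both other groups, but in summed RPKM all groups overlapped, at 783, 619 and 673 RPKM in Tet2fl/fl, at 556, 713 and 457 RPKM in Vav1CreTet2KO and at 679, 532 and 613 RPKM in Cd4CreTet2KO. RPKM totals differ between libraries, and that of CD4 Vav1CreTet2KO replicate 2 is 233235, against 123209 to 181180 in the other CD4 libraries. Gapdh makes up a large part of the sum, and no test was made of it.

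**Figure D4:**
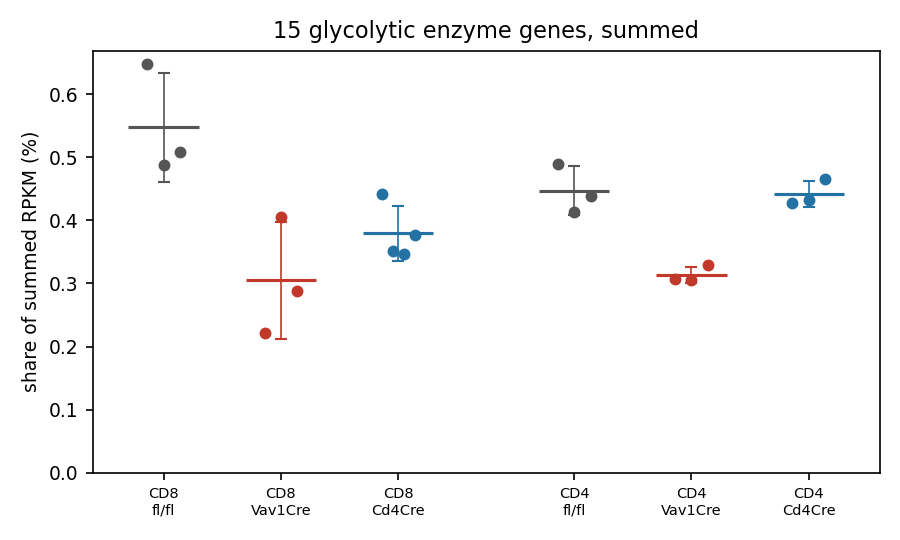
Share of the summed RPKM of each library (%, axis from 0) that falls on 15 glycolytic enzyme genes, by cell type and genotype. Points are libraries, wide bars means and error bars SD. CD8 controls lie at 0.488% or more and all CD8 knockouts at 0.442% or less, and CD4 Vav1CreTet2KO lies at 0.328% or less. The summed RPKM of the same genes overlaps between groups.

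In CD4 cells, no member passed with edgeR in any of the 3 comparisons with all libraries in the fit. In CD4 Vav1CreTet2KO against Tet2fl/fl 0 of 31 members were called with edgeR, against 0.00738% of 13554 genes, and 6 members had an unadjusted p under 0.05, all lower, against 5.21% of all genes. DESeq2, which called many more of all genes than edgeR, called 1 member, Pfkl. The median of the members was -0.23 and that of all genes -0.16, with 18 members negative, against 56.4% of all genes. Groups did not overlap in 7 members, all lower in Vav1CreTet2KO, against 12.5% of all genes, and 0 were higher, against 3.19%. These were Slc2a1, Hk1, Gpi1, Pfkl, Pfkp, Vegfa and Ddit4. Of the 10 genes of upper glycolysis 4 did not overlap and 6 did, among them Hk2 (1.19) and Pfkfb3 (0.05), as did the transporter Slc2a3 (0.06). The 5 genes of lower glycolysis all overlapped, with log2 fold changes from -0.31 to 0.50.

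Pfkl stood at 13.5, 9.28 and 13.1 RPKM in CD4 Tet2fl/fl, at 6.11, 3.67 and 3.96 RPKM in Vav1CreTet2KO and at 12.4, 11.0 and 11.7 RPKM in Cd4CreTet2KO. For Vav1CreTet2KO it was, as a log2 fold change, -1.28 against Tet2fl/fl (SE 0.39, edgeR adjusted p = 0.235) and -1.34 against Cd4CreTet2KO (SE 0.39, edgeR adjusted p = 0.207), and DESeq2 called both (DESeq2 adjusted p = 0.0381 and 0.0303). Vav1CreTet2KO was thus clear of both other groups, which lay together. Pfkp followed the same order, at 17.2, 14.8 and 17.4 RPKM in Tet2fl/fl, at 8.05, 5.69 and 9.64 RPKM in Vav1CreTet2KO and at 13.9, 11.3 and 16.1 RPKM in Cd4CreTet2KO. The Vav1CreTet2KO differences were -0.94 from Tet2fl/fl (SE 0.33, edgeR adjusted p = 0.306) and, from Cd4CreTet2KO, -0.78 (SE 0.33, edgeR adjusted p = 0.431). In CD8 cells Pfkp stood at 24.6, 18.6 and 29.6 RPKM in Tet2fl/fl, at 13.3, 22.2 and 13.1 RPKM in Vav1CreTet2KO and at 19.1, 13.0, 15.9 and 19.4 RPKM in Cd4CreTet2KO, with overlap between all groups.

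Gpi1, which encodes the isomerase that follows hexokinase, stood at 86.5, 66.8 and 55.6 RPKM in CD4 Tet2fl/fl, at 34.4, 39.8 and 44.5 RPKM in Vav1CreTet2KO and at 46.9, 41.4 and 50.6 RPKM in Cd4CreTet2KO. Both CD4 knockouts lay below the controls, with log2 differences of -0.68 in Vav1CreTet2KO (SE 0.26, edgeR adjusted p = 0.334) and, in Cd4CreTet2KO, -0.48 (SE 0.25, edgeR adjusted p = 0.9998). In CD8 cells Gpi1 stood at 67.1, 56.1 and 56.7 RPKM in Tet2fl/fl, at 46.3, 76.8 and 48.8 RPKM in Vav1CreTet2KO and at 61.4, 41.1, 55.3 and 42.3 RPKM in Cd4CreTet2KO, and the groups overlapped. Slc2a1, the basal glucose transporter, stood at 14.5, 13.9 and 12.2 RPKM in CD4 Tet2fl/fl, at 6.33, 10.3 and 5.53 RPKM in Vav1CreTet2KO and at 10.5, 11.2 and 9.72 RPKM in Cd4CreTet2KO. All 6 knockout libraries lay below the 3 controls (Vav1CreTet2KO -0.78, SE 0.36, edgeR adjusted p = 0.413). In CD8 cells the groups overlapped, at 13.3, 9.19 and 11.2 RPKM in Tet2fl/fl, at 3.82, 13.3 and 6.59 RPKM in Vav1CreTet2KO and at 8.79, 4.17, 10.04 and 9.18 RPKM in Cd4CreTet2KO.

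Vegfa was the member with the widest CD4 difference. It stood at 1.52, 2.53 and 5.09 RPKM in CD4 Tet2fl/fl, at 0.307, 0.0903 and 0.824 RPKM in Vav1CreTet2KO and at 2.42, 3.23 and 3.80 RPKM in Cd4CreTet2KO. The Vav1CreTet2KO values rest on 2, 9 and 56 reads, against 105 to 693 reads in the other CD4 libraries. Vegfa was clear of both groups, with log2 differences of -2.70 (SE 0.97, edgeR adjusted p = 0.314) against Tet2fl/fl and -2.83 (SE 0.98, edgeR adjusted p = 0.323) against Cd4CreTet2KO. Macrophage markers summed to 1.33 to 57.7 RPKM in CD4 Tet2fl/fl, to 29.5 to 62.2 RPKM in Vav1CreTet2KO and to 3.87 to 12.9 RPKM in Cd4CreTet2KO, so that they separated the knockouts as Vegfa and Pfkl did, in the opposite direction. Dendritic cell markers summed to 432 to 784 RPKM in CD4 Vav1CreTet2KO, above both Tet2fl/fl (86.1 to 221 RPKM) and Cd4CreTet2KO (92.2 to 237 RPKM). The part of either set of markers in these differences was not tested. Without Vav1CreTet2KO replicate 3 the Vegfa differences were -4.35 and -4.48 and passed (edgeR adjusted p = 0.0486 and 0.0473), in a fit where the number of called genes rose from 1 to 819 against Tet2fl/fl and from 9 to 719 against Cd4CreTet2KO.

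In CD4 Cd4CreTet2KO against Tet2fl/fl 0 of 31 members were called with edgeR or DESeq2 and 0 had an unadjusted p under 0.05, against 0.0295% of genes called (0.0221% lower) and 0.738% of genes lower at that unadjusted p. The median was -0.02, with 0.00 over all genes, and 15 members were positive and 16 negative, against 49.7% of all genes negative. Groups did not overlap in 4 members with lower (Slc2a1, Gpi1, Bnip3 and Ddit4) and 2 with higher Cd4CreTet2KO levels (Slc16a3 and Ero1l), against 7.93% and 5.83% of all genes. Bnip3 stood at 3.46, 2.72 and 5.42 RPKM in Tet2fl/fl, at 2.61, 2.20 and 2.48 RPKM in Cd4CreTet2KO and at 0.583, 7.41 and 1.57 RPKM in Vav1CreTet2KO, where the libraries spread from below to above the controls. Ldha, lactate dehydrogenase, stood at 56.4, 41.6 and 44.4 RPKM in Tet2fl/fl, at 75.2, 48.5 and 55.8 RPKM in Cd4CreTet2KO and at 57.0, 72.2 and 39.0 RPKM in Vav1CreTet2KO (Cd4CreTet2KO 0.42, SE 0.26, edgeR adjusted p = 0.9998).

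The lactate exporter gene Slc16a3 stood at 0.872, 1.06 and 1.56 RPKM in CD4 Tet2fl/fl, at 2.03, 3.01 and 2.53 RPKM in Cd4CreTet2KO and at 1.85, 1.86 and 0.488 RPKM in Vav1CreTet2KO (Cd4CreTet2KO 1.21, SE 0.77, edgeR adjusted p = 0.9998). Ero1l, an oxidase that helps form disulphide bonds in the endoplasmic reticulum, stood at 3.18, 4.13 and 3.28 RPKM in Tet2fl/fl, at 6.44, 7.13 and 6.15 RPKM in Cd4CreTet2KO and at 0.965, 0.607 and 4.31 RPKM in Vav1CreTet2KO. Its difference was 1.00 in Cd4CreTet2KO (SE 0.68, edgeR adjusted p = 0.9998) and its libraries were tight, while those of Vav1CreTet2KO were split. Gapdh stood at 232, 187.4 and 203 RPKM in Tet2fl/fl, at 187.97, 144 and 164 RPKM in Cd4CreTet2KO and at 206, 256 and 145 RPKM in Vav1CreTet2KO, and the groups overlapped (Cd4CreTet2KO -0.23, SE 0.23, edgeR adjusted p = 0.9998).

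Between the CD4 knockouts 0 of 31 members were called with edgeR, against 0.0664% of genes (0.0443% higher). An unadjusted p under 0.05 was found for 4 members, all lower, against 5.06% of all genes. DESeq2, which called many more of all genes than edgeR, called 2 members, Pfkl and Vegfa. The members' median was -0.32 (all genes -0.19), and 23 members were lower in Vav1CreTet2KO, against 57.8% of all genes. Groups did not overlap in 6 members, all lower in Vav1CreTet2KO, against 15.3% of all genes, and 0 were higher, against 4.14%. Ero1l had a difference of -1.62 (SE 0.69, edgeR adjusted p = 0.431), which became -3.18 and passed without Vav1CreTet2KO replicate 3 (edgeR adjusted p = 0.0143). Hk1 stood at 8.06, 12.3 and 10.9 RPKM in Vav1CreTet2KO, at 15.4, 13.2 and 14.7 RPKM in Cd4CreTet2KO and at 15.6, 15.1 and 12.4 RPKM in Tet2fl/fl (knockouts -0.45, SE 0.27, edgeR adjusted p = 0.584). Slc2a1 overlapped between the knockouts (-0.51, SE 0.36, edgeR adjusted p = 0.663).

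**Figure D5:**
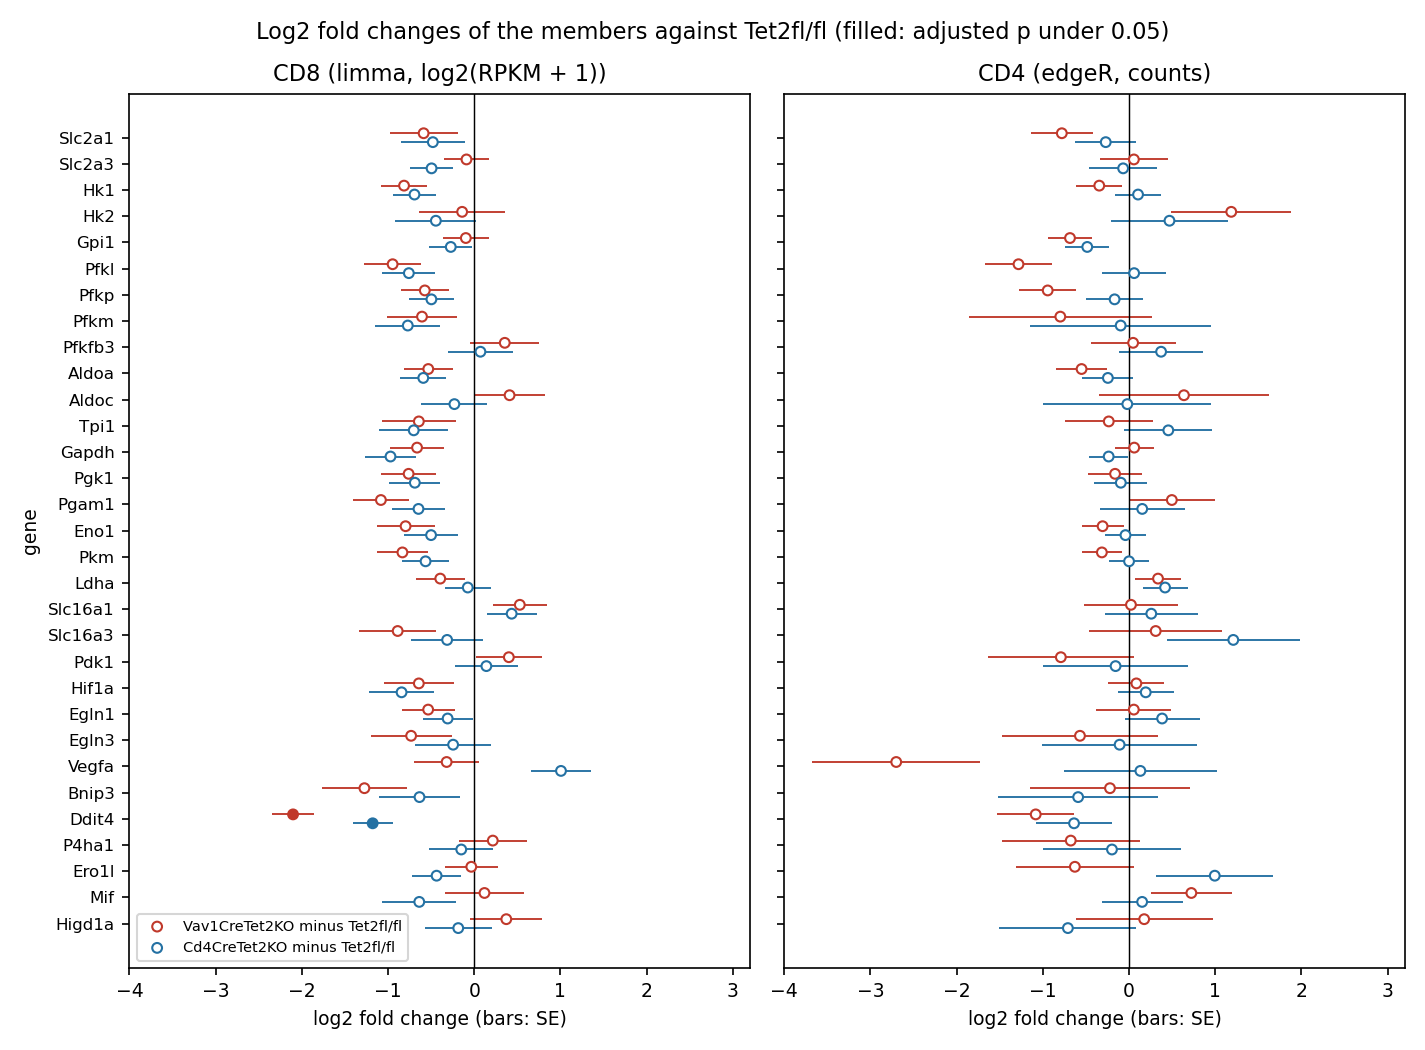
Log2 fold change (horizontal axis) of each of the 31 members against Tet2fl/fl in CD8 cells (left, limma on log2(RPKM + 1)) and CD4 cells (right, edgeR on counts). Bars are SE, red is Vav1CreTet2KO, blue is Cd4CreTet2KO, and filled points passed an adjusted p under 0.05. Ddit4 in CD8 cells holds the filled points, at -2.10 and -1.18. The fold scales of the panels differ, because of the value added in limma.

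Members that ranked high only in CD4 comparisons mostly overlapped between the CD8 genotypes. Ldha stood at 68.0, 39.7 and 43.3 RPKM in the CD8 controls (Tet2fl/fl), at 36.8, 48.3 and 28.4 RPKM in Vav1CreTet2KO and at 56.0, 39.0, 49.1 and 43.3 RPKM in Cd4CreTet2KO. Ero1l stood at 4.58, 3.87 and 4.74 RPKM, at 5.57, 5.29 and 2.52 RPKM and at 4.20, 2.99, 2.33 and 2.63 RPKM in the same order. Both overlapped between genotypes. Slc16a3 stood at 3.58, 0.961 and 1.08 RPKM in Tet2fl/fl, at 0.617, 0.400 and 0.299 RPKM in Vav1CreTet2KO and at 2.64, 1.45, 0.135 and 1.05 RPKM in Cd4CreTet2KO. Its Vav1CreTet2KO libraries lay below the controls, with a difference of -0.89 (SE 0.44, limma adjusted p = 0.332).

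The CD4 values of the other members named in CD8 cells mostly overlapped. Pgk1 stood at 40.1, 28.8 and 48.8 RPKM in Tet2fl/fl, at 33.7, 40.2 and 24.9 RPKM in Vav1CreTet2KO and at 42.0, 27.7 and 34.7 RPKM in Cd4CreTet2KO. Pgam1 stood at 18.3, 24.3 and 18.6 RPKM, at 52.1, 18.2 and 10.5 RPKM and at 18.7, 22.3 and 22.4 RPKM in that order, where the high value is that of the shallowest library. Pkm was tight in the controls, at 98.2, 93.0 and 93.6 RPKM, and stood at 52.6, 100 and 62.0 RPKM in Vav1CreTet2KO and at 95.2, 83.4 and 88.6 RPKM in Cd4CreTet2KO. For Pgam1 and Pkm the SD of CD4 Vav1CreTet2KO (22.1 and 25.3 RPKM) was above that of the controls (3.40 and 2.87 RPKM), and for Pgk1 it was 7.69 RPKM against 10.02 RPKM in the controls.

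Mif stood at 37.7, 63.9 and 34.7 RPKM in CD4 Tet2fl/fl, at 47.8, 128 and 38.9 RPKM in Vav1CreTet2KO and at 47.2, 42.2 and 52.0 RPKM in Cd4CreTet2KO. Higd1a stood at 3.72, 6.07 and 2.61 RPKM, at 2.49, 9.999 and 1.06 RPKM and at 1.43, 2.99 and 2.50 RPKM in that order. In both genes replicate 2 of Vav1CreTet2KO was the highest CD4 library. Aldoc stood at 1.71, 1.32 and 0.818 RPKM in Tet2fl/fl, at 2.00, 3.23 and 0.488 RPKM in Vav1CreTet2KO and at 1.94, 0.798 and 0.873 RPKM in Cd4CreTet2KO. Slc2a3 stood at 10.8, 9.53 and 6.38 RPKM, at 5.28, 13.9 and 6.80 RPKM and at 9.59, 7.71 and 6.57 RPKM, with overlap between all groups.

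The remaining 12 members did not rank among the first 6 by p in any comparison. Hif1a, the oxygen-regulated subunit of the factor itself, averaged 36.8 ± 6.93 RPKM in CD8 Tet2fl/fl (SD, n = 3), 25.7 ± 13.0 in Vav1CreTet2KO (n = 3) and 20.7 ± 7.21 in Cd4CreTet2KO (n = 4). All 4 CD8 Cd4CreTet2KO libraries (14.2 to 29.6 RPKM) lay below the controls (31.8 to 44.7 RPKM), a difference of -0.84 on the log2 scale (SE 0.38, limma adjusted p = 0.392). In CD4 cells its means were 55.0 ± 16.5, 54.7 ± 25.1 and 57.9 ± 9.998 RPKM (n = 3 each). All 8 animals with both cell types had more Hif1a, and more Egln3, in CD4 than in CD8 cells, and all 8 had more Pfkp in CD8 cells. These orders also held in all 8 after RPKM were rescaled to a common sum, and they were described but not tested. Of all members, 18 had the higher mean in CD8 cells in Tet2fl/fl, 18 in Vav1CreTet2KO and 10 in Cd4CreTet2KO. After the same rescaling these counts were 18, 20 and 7. In Cd4CreTet2KO the 2 means come from partly different animals. CD8 Cd4CreTet2KO replicates 1 and 2, which held macrophage and neutrophil transcripts, came from animals without a CD4 library.

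Among the oxygen sensors Egln1 ranged from 8.46 to 19.9 RPKM in CD8 and from 4.52 to 23.3 RPKM in CD4 libraries. Egln3, itself a HIF target, averaged 1.61 ± 0.996, 0.530 ± 0.459 and 1.29 ± 1.28 RPKM in CD8 Tet2fl/fl, Vav1CreTet2KO and Cd4CreTet2KO, and 6.26 ± 3.04, 3.81 ± 3.53 and 5.30 ± 1.43 RPKM in the CD4 groups. It had 0 reads in CD8 Vav1CreTet2KO replicate 1 and CD4 Vav1CreTet2KO replicate 1. The latter, at 707866 reads, also had 0 reads on Pfkm, Pdk1 and P4ha1. An interval or floor for these values of 0 would cover counting error at most, and none is given. The labels used here do not say whether reads were marked by molecular identifiers.

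Of the enzymes of glycolysis not yet described, Eno1 averaged 103 ± 41.8, 58.6 ± 21.6 and 70.5 ± 15.4 RPKM in the CD8 groups in the order given, and Tpi1, triose phosphate isomerase, 21.7 ± 11.3, 13.3 ± 5.71 and 12.4 ± 4.83 RPKM. Aldoa averaged 85.9 ± 21.7, 58.2 ± 7.92 and 56.8 ± 14.4 RPKM, and its Vav1CreTet2KO libraries (49.3 to 64.5 RPKM) lay just below the controls (65.0 to 108 RPKM). None passed, with log2 fold changes in Vav1CreTet2KO from -0.80 (Eno1) to -0.53 (Aldoa). Hk2 averaged 4.68 ± 1.80, 4.62 ± 2.86 and 3.36 ± 1.96 RPKM and Pfkm 2.70 ± 1.77, 1.28 ± 0.590 and 1.05 ± 0.565 RPKM. Pfkfb3, which makes the activator of phosphofructokinase, averaged 5.02 ± 1.69, 7.04 ± 3.39 and 5.45 ± 2.40 RPKM, with a positive difference in both knockouts (0.35 and 0.07).

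Pdk1, which shuts pyruvate out of the mitochondrial citrate cycle, averaged 3.30 ± 1.06, 4.59 ± 0.525 and 4.15 ± 3.02 RPKM in the CD8 groups. Slc16a1 averaged 3.47 ± 1.04, 5.36 ± 0.841 and 5.12 ± 1.86 RPKM, and its 3 Vav1CreTet2KO libraries (4.85 to 6.33 RPKM) lay above all controls (2.31 to 4.32 RPKM), by 0.53 (SE 0.31, limma adjusted p = 0.400). P4ha1, a collagen prolyl hydroxylase subunit, averaged 6.10 ± 2.29, 7.92 ± 5.54 and 5.20 ± 0.862 RPKM. In CD4 cells the log2 fold changes of these 12 members against Tet2fl/fl ranged from -0.80 (Pfkm) to 1.19 (Hk2) in Vav1CreTet2KO and from -0.24 (Aldoa) to 0.47 (Hk2) in Cd4CreTet2KO. The Hk2 mean in CD4 Vav1CreTet2KO, 4.86 ± 5.24 RPKM, came largely from the shallowest library at 10.9 RPKM.

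The surrounding pathway was read through 7 further lists with 106 genes in the tables. They held other glycolytic isoenzymes, other hypoxia-induced genes, regulators of HIF, the pentose phosphate pathway, serine and one-carbon metabolism, pyruvate entry into mitochondria and upstream control of glucose use. Of 81 of these genes tested in CD8 cells and 94 in CD4 cells, 0 passed in any of the 6 comparisons. At an unadjusted p under 0.05, 2 were higher and 9 lower in CD8 Vav1CreTet2KO against Tet2fl/fl, and 1 was higher and 10 lower in CD8 Cd4CreTet2KO. Of all 10224 genes tested, 583 and 376 were higher and 1182 (11.6%) and 887 (8.68%) lower at that p in these comparisons. Between the CD8 knockouts 2 of the listed genes were higher in Vav1CreTet2KO and 0 lower, against 374 and 273 of all genes. In CD4 Vav1CreTet2KO 5 were higher and 1 lower, against 911 and 706 of all 13554 genes. In CD4 Cd4CreTet2KO 2 were higher and 0 lower, against 239 and 100 of all genes. Between the CD4 knockouts 5 were higher and 6 lower, against 763 and 686 of all genes. The other hypoxia-induced genes, a list of 30 of which 20 were tested in CD8 cells, had a median log2 fold change of -0.21 in CD8 Vav1CreTet2KO, with 12 negative, and of -0.36 in CD8 Cd4CreTet2KO, with 18 negative, against 58.4% and 66.6% of all genes negative. The other glycolytic isoenzymes, 12 tested, had medians of 0.18 and 0.22.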

How the data were processed

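The authors deposited 1 table per cell type. The CD4 table holds counts of reads per gene and RPKM, and the CD8 table holds RPKM without counts, per the file headers. The authors' log2 fold changes and false discovery rates (the authors' adjusted p-values) were copied for comparison only. The submitters' processing notes list the builds GRCm38 and mm10, but gene positions in the tables did not match GRCm38 and are not printed. Aligner and counter: not given in the sources used here. In all, 28 columns with values of single libraries were read and 18 were not used.

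CD8 RPKM were tested with limma 3.58.1 (trend, robust) on log2(RPKM + 1), keeping genes that reached 1 RPKM in 3 or more libraries. CD4 counts were tested with edgeR 4.0.16 (quasi-likelihood, robust, TMM, filterByExpr with minimum count 10 and total 15). Each table was 1 fit over all its libraries, with Benjamini-Hochberg adjustment over all genes tested at 0.05. Reads recovered from CD8 RPKM through the gene lengths implied by the CD4 table were whole within 0.01 for 134719 of 134905 values (99.9%), and served for depth and as alternatives. Scripts were tested on simulated data. Alternatives comprised another pseudocount (0.1), no filter, DESeq2 1.42.0, other scalings, only the groups compared, a replicate block and each library left out.

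Members with a fold change were those called and then those of smallest p until 6 per comparison (19 in all). The members, lists and tests were chosen with earlier results of these data known. A row named Aldoa_2 held 1 read over all CD4 libraries and was not used.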

Additional observations from a re-analysis of the deposited data

Results flagged for a closer look

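In the group of 4 CD8 Cd4CreTet2KO libraries, 3 of 31 members had a library far from the rest of its group by Dixon's test at 95%, which chance alone flags in about 1 in 20 groups. Pdk1 stood at 8.68 RPKM in replicate 3, against 2.42 to 2.83 RPKM in the other libraries. Egln1 stood at 9.78 RPKM and Higd1a at 1.84 RPKM in replicate 2, each below the others. Groups of 3 libraries were not put through this test.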

How the results depend on the processing

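Numbers of called genes and members both moved with the tool and filter. In CD8 Vav1CreTet2KO against Tet2fl/fl 148 genes were called, and 88 with a pseudocount of 0.1, 48 without a filter, 91 with edgeR on recovered reads, 98 with only the compared groups and 809 with DESeq2, which called 3 members in place of 1. Leaving out 1 library gave 0 to 211 genes and 0 to 1 members. In CD8 Cd4CreTet2KO against Tet2fl/fl the 52 genes became 12 with a pseudocount of 0.1, 3 without a filter, 279 with only the compared groups (2 members), 540 with DESeq2 (3 members) and 0 without both libraries with macrophage and neutrophil transcripts. Here 0 members were called with the other pseudocount, without a filter, with edgeR, with TMM rescaling or without those libraries, and leaving out 1 library gave 0 to 40 genes and 0 members. Between the CD8 knockouts 0 genes became 60 with DESeq2 (2 members), 2 with only the compared groups and 0 to 1 with 1 library left out. The split of calls into higher and lower was 46 and 102 in CD8 Vav1CreTet2KO, 40 and 51 with edgeR and 59 and 110 with TMM rescaling. In CD8 Cd4CreTet2KO it was 7 and 45, 36 and 28, and 22 and 48.

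In CD4 Vav1CreTet2KO against Tet2fl/fl 1 gene became 451 with DESeq2 (1 member), 383 without a filter, 0 with limma and 0 to 819 (0 to 2 members) with 1 library left out. In CD4 Cd4CreTet2KO 4 genes became 24 with DESeq2, 37 without a filter, 2 with limma, 8 with only the compared groups and 0 to 4 with 1 library left out. Between the CD4 knockouts 9 genes became 411 with DESeq2 (2 members), 403 without a filter, 4 with limma, 3 with only the compared groups and 2 to 719 (0 to 2 members) with 1 library left out. The cause of these moves was not tested.

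The members' median between the CD8 knockouts, 0.06, turned to -0.0885 with edgeR, -0.0587 with DESeq2, -0.0819 with TMM rescaling, -0.0662 without the macrophage libraries and -0.13 to 0.16 with 1 library left out. That of CD4 Cd4CreTet2KO, -0.02, ran from -0.0317 to 0.0473 with 1 library left out. Higd1a between the CD8 knockouts ran from -0.0217 (without Vav1CreTet2KO replicate 1) to 0.89. Over all named members, leaving out 1 library kept direction and call in 216 values, added a call in 3, lost it in 8 and turned 1, and the other settings kept 230, added 10 and lost 6.

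Replicate numbers are shared between genotypes by different animals only, with correlations of deviations from -0.0974 to 0.0977. A replicate block gave 90 genes in CD8 Vav1CreTet2KO, 0 genes and 0 members in CD8 Cd4CreTet2KO (Ddit4 limma adjusted p = 0.113), 3 genes in CD4 Vav1CreTet2KO and a member median of 0.0082 in CD4 Cd4CreTet2KO. The 3 or 4 libraries a group limit what could be detected, and CD4 Vav1CreTet2KO replicate 1 has 707866 reads and 2 reads on Vegfa.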
